A study of Mus musculus with 28 samples.

Results

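LIM homeodomain factors were followed as a family in 7 mouse embryonic stem cell (ESC) lines in which Atoh1, Gfi1 and Pou4f3 can be switched on alone or together. The family was taken by name as Lhx1, Lhx2, Lhx3, Lhx4, Lhx5, Lhx9, Isl1, Isl2, Lmx1a and Lmx1b. Each was found in the deposited matrix by its Entrez ID, so that 10 of 19421 genes are described. The study asked how Gfi1 and Pou4f3 alter what Atoh1 does, since Atoh1 specifies both the mechanosensory hair cells (HCs) of the inner ear and several kinds of neurons.

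Every line was made from A2loxCre ESCs, which hold the reverse tetracycline transactivator needed for a doxycycline (Dox) response. A single cassette in each line encoded Atoh1 (iAtoh1), Gfi1 (iGfi1), Pou4f3 (iPou4f3), Gfi1 and Atoh1 (iG+A), Gfi1 and Pou4f3 (iG+P), Pou4f3 and Atoh1 (iP+A) or all 3 factors (iGPA), together with the reporter mVenus. ESCs were grown as embryoid bodies (EBs), aggregates in which cells of all germ layers arise. Cells of the Dox groups received 2 µg/ml Dox from day 4 and were sorted as mVenus+ cells 48 h later, at day 6. No Dox groups of the same lines were whole, unsorted EBs of the same day, so Dox treatment and cell sorting cannot be told apart. Each of the 14 groups has 2 libraries, from different clones of a line. In bulk RNA, fewer cells that express a gene and less RNA per cell cannot be told apart either.

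LIM homeodomain proteins bind DNA through a homeodomain and bind other proteins through a pair of LIM domains. The LIM domains attach to Ldb1 or Ldb2, adaptors that dimerise and so join LIM homeodomain proteins into larger complexes. The composition of such a complex distinguishes cell types, as in the spinal cord, where Lhx3 with Ldb1 marks V2 interneurons and Lhx3 with Isl1 and Ldb1 marks motor neurons. The family is usually divided into pairs of paralogs, Lhx3 with Lhx4, Isl1 with Isl2, Lhx1 with Lhx5, Lmx1a with Lmx1b, and Lhx2 with Lhx9. Lhx3 is also made by HCs, where it serves as a marker, and Isl1 is made by the prosensory cells of the ear and by sensory and motor neurons.

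Lhx3, Isl1, Lhx1 and Lmx1b are the members that rose in iGPA cells, and the bases before their start sites are shown so that the places where the induced factors might bind can be read beside the expression values. The sequences are RefSeq promoter windows of build GRCm38.p6, given 5′ to 3′ on the strand of the gene, 250 bases up to the start. Capitals mark every E box, the motif CANNTG that basic helix-loop-helix factors such as Atoh1 recognise. Lhx3 has 2 listed starts, at chr2:26208250-26208499 and chr2:26206576-26206825. The windows of Isl1, Lhx1 and Lmx1b are chr13:116309689-116309938, chr11:84525535-84525784 and chr2:33641099-33641348. All 5 windows lie on the minus strand.
Lhx3, upstream start: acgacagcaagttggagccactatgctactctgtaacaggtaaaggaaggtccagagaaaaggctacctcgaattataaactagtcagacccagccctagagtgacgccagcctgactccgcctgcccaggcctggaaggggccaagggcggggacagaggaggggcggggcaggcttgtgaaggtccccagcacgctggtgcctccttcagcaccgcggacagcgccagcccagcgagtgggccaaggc
Lhx3, downstream start: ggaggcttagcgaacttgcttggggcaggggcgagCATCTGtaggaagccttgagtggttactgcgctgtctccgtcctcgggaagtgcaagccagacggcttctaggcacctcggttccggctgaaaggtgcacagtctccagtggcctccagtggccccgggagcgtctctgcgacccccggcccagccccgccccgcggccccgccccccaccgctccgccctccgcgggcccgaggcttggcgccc
Isl1: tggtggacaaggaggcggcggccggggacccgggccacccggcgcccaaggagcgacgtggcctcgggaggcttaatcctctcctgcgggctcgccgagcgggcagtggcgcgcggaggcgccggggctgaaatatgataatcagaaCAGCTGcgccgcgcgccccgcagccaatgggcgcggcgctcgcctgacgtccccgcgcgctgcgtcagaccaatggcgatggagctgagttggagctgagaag
Lhx1: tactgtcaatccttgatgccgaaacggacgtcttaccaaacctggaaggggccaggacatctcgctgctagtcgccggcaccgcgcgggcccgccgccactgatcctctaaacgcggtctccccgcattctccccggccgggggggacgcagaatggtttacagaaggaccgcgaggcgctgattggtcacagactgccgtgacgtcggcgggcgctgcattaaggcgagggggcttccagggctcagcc
Lmx1b: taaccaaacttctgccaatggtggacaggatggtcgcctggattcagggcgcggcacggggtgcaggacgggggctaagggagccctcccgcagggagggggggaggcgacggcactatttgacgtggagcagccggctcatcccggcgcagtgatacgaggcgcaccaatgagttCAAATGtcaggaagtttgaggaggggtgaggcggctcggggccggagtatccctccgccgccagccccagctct

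The window of Isl1 held a CAGCTG, an E box core that Atoh1 prefers, which began 103 bases before the start. The downstream window of Lhx3 held a CATCTG and that of Lmx1b a CAAATG, whereas the upstream window of Lhx3 and the window of Lhx1 had no E box. Over the searched 300 bases, which add 50 after the start, 9 of the 10 members had 11 windows in the table. CAGCTG was found in 1 of the 11 and in 16.3% of all 32851 mouse windows. CANNTG, of which CAGCTG is one form, was found in 6 of the 11 and in 72.3% of all windows. Neither AATCAC, the core of the Gfi1 motif (10.4% of all windows), nor TAATTA, a homeodomain core (5.29%), occurred in a window of a member. Both strands were searched, and a match describes letters, not a bound site. Lhx5 had no entry in the table.

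The 28 libraries were similar in size, with sums of 36.75 to 40.38 M normalised counts and an estimated depth of 30.35 to 48.03 M reads. The induced factors were high in every line that carries them, with mean Dox levels of 13852 to 20119 for Atoh1, 8792 to 11608 for Gfi1 and 5037 to 18737 for Pou4f3. Factors that a line does not carry were far lower but were also called up in 6 cases, Atoh1 in iGfi1 and iG+P (means with Dox of 29.5 and 28.7), Gfi1 in iPou4f3 and iP+A (110 and 96.6) and Pou4f3 in iAtoh1 and iG+A (81.9 and 46.2). A line with or without a factor here means its transgene. No Dox EBs held markers of blood, endothelium, fibroblasts, cardiac mesoderm, the primitive streak, neurons and HCs. Of the neuronal markers, Tubb3, Elavl3, Elavl4, Map2, Nefl and Stmn2 had at least 10 normalised counts in all 14 untreated libraries. Dcx had them in 8 and Nefm in 7. Of the HC markers, Myo7a, Myo6, Espn and Cdh23 had them in all 14 and Otof in 3. None of the 52 markers on these lists was at 0 in every library. Cer1 was at 0 in 4 libraries and Nefm in 1. One untreated library stood apart for several members. The iG+A No Dox replicate 1 had the lowest Lhx1 and Isl1 and the highest Lmx1a and Lhx2 of the 14 untreated libraries.

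**Figure D1:**
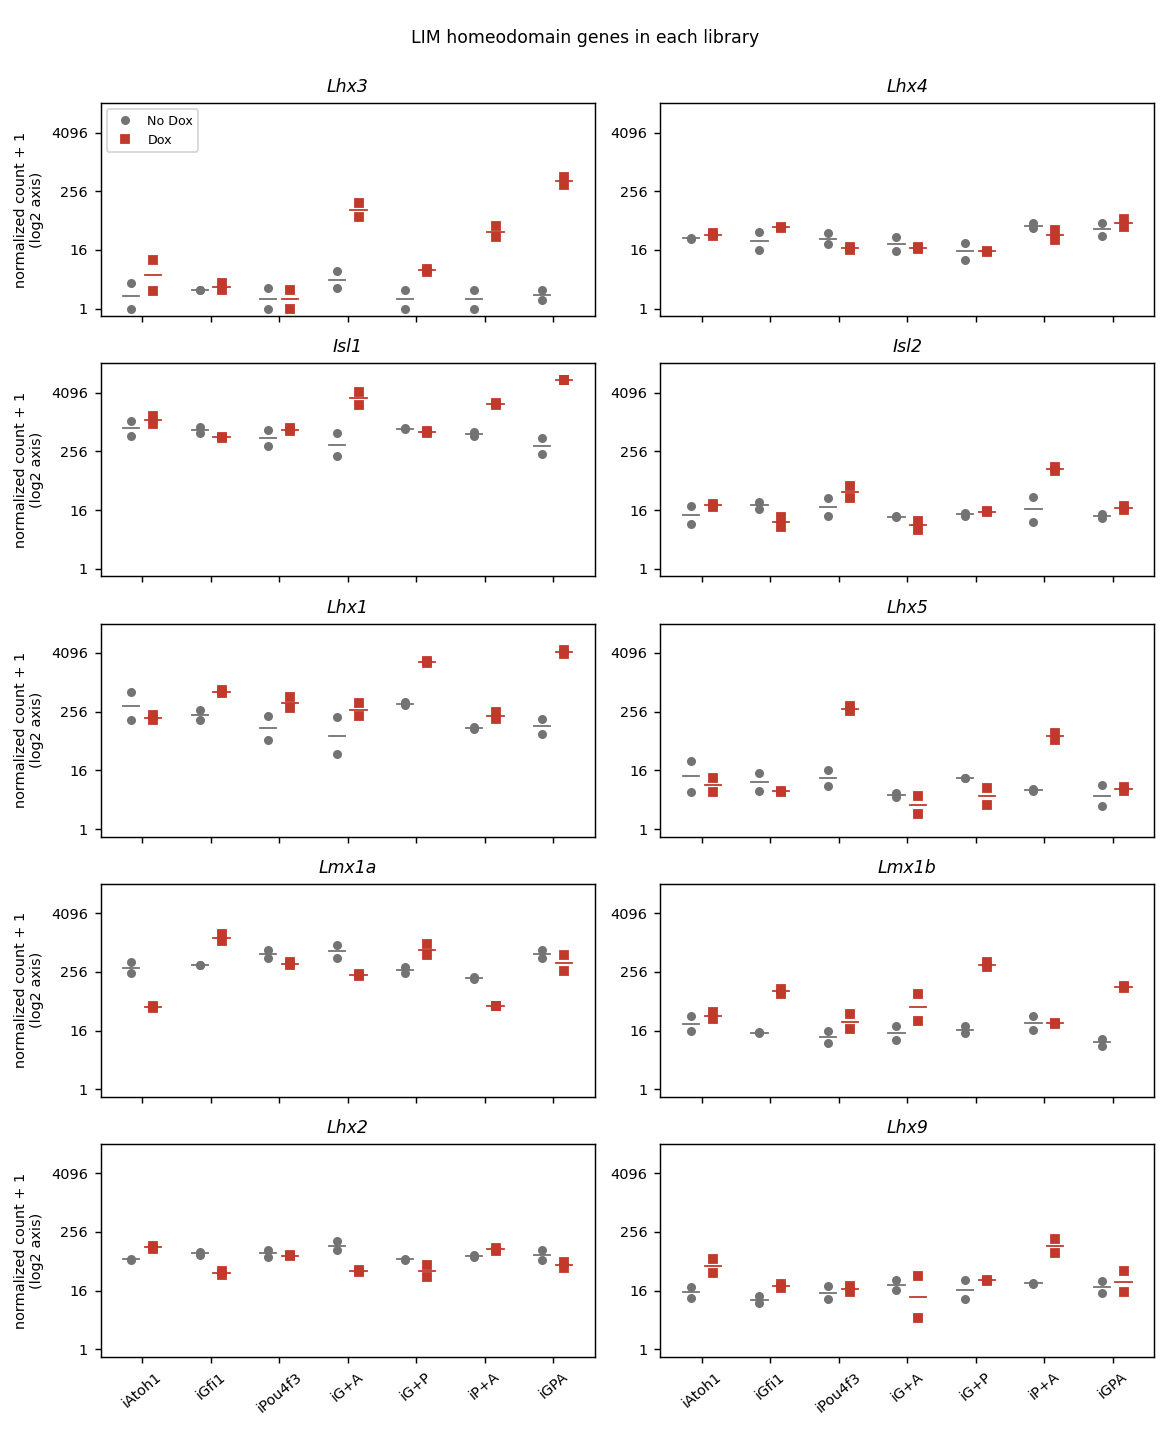
Normalised count plus 1 (log2 axis) of each LIM homeodomain gene in every library, by line, with grey circles for No Dox, red squares for Dox and a bar at the mean of the log2 values of the 2 libraries. Lhx3 stays under 5 normalised counts in all untreated libraries and reaches 337 and 497 in iGPA cells, Lhx5 is raised in iPou4f3 and iP+A cells, and Lhx4 changes little anywhere.

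A gene was called past the threshold when the difference between Dox and No Dox reached 1.5 on the log2 scale with an adjusted p under 0.05 in limma. All fold changes are differences of log2(normalised count + 1), and for genes with few counts the added 1 makes them smaller than the ratio of the counts. Of 70 member effects (10 members in 7 lines), 22 passed, 18 of them up and 4 down, and 9 members passed in at least 1 line. The share of all 16837 tested genes that passed is the background for these counts. In iAtoh1 cells 0 members rose against 2.89% of all genes, and 1 fell against 2.52%. In iGfi1 cells 2 rose (2.15%) and 0 fell (2.67%), and in iPou4f3 cells 1 rose (1.47%) and 0 fell (0.606%). In iG+A cells 4 rose (7.35%) and 2 fell (4.95%), and in iG+P cells 2 rose (5.16%) and 0 fell (5.36%). In iP+A cells 5 rose (4.70%) and 1 fell (2.58%), and in iGPA cells 4 rose (8.65%) and 0 fell (5.31%). The median member effect was 1.44 in iP+A and 0.50 in iGPA cells, where the medians over all genes were −0.03 and 0.01. All 10 members passed the filter on low values, but Lhx3 passed it only through libraries with Dox and so had to differ there.

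**Figure D2:**
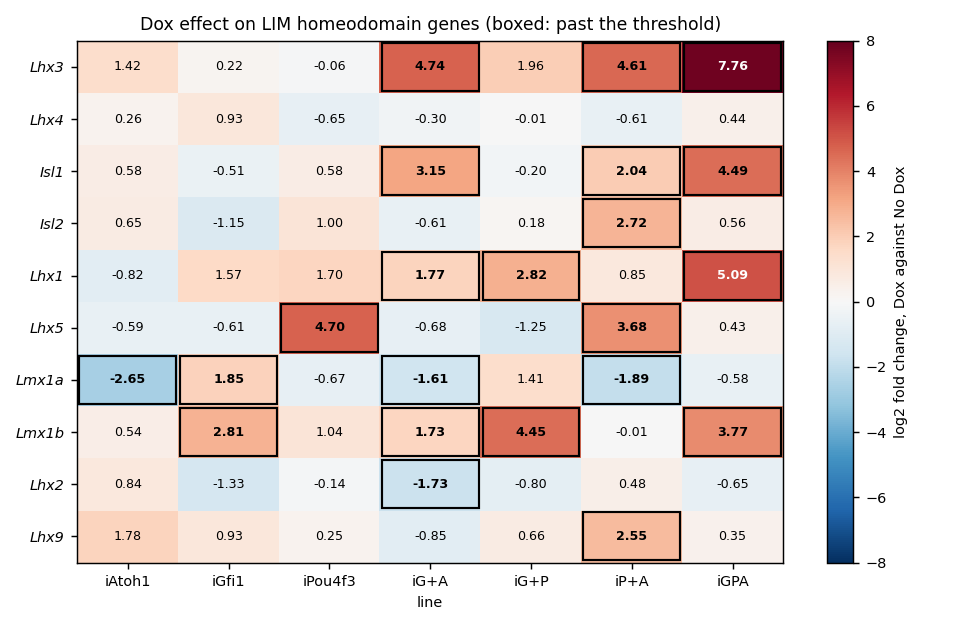
Log2 fold change of Dox against No Dox for each LIM homeodomain gene (rows, in paralog pairs) in each line (columns), with effects past the threshold boxed and in bold. Lhx3 and Isl1 share the boxed lines iG+A, iP+A and iGPA, Lhx5 is boxed in iPou4f3 and iP+A, and Lmx1b in the 4 lines that carry Gfi1.

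Lhx3 (chr2:26055732-26063769, minus strand, build NCBIM37 as for all gene positions given here) was all but silent without Dox. Its level over the 14 untreated libraries ran from 0 to 4.81 normalised counts, with a median of 1.44. With Dox it reached 337 and 497 in the 2 iGPA libraries, 76.0 and 143 in iG+A and 47.9 and 28.8 in iP+A. Every one of these 6 libraries lay above every untreated library of the series. In iAtoh1 cells the levels were 9.14 and 1.4, in iG+P 5.63 and 4.64, in iGfi1 1.38 and 2.36, and in iPou4f3 0 and 1.40. Thus Atoh1 alone was accompanied by few Lhx3 reads, and the 3 lines with clear Lhx3 RNA were those in which Atoh1 was joined by Gfi1, by Pou4f3 or by both.

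The log2 fold change of Lhx3 was 7.76 (SE 0.77, limma adjusted p = 2.46e-07) in iGPA cells, 4.74 (SE 0.77, adjusted p = 9.57e-05) in iG+A and 4.61 (SE 0.77, adjusted p = 0.000248) in iP+A. Since the controls rest on a handful of reads, the ratio of Dox to No Dox was also taken from estimated reads with its exact 95% interval, which covers counting error only. It was 452 (125 to 3735) in iGPA, from 822 estimated reads against 2. It was 80.1 (14 to 3202) in iP+A, from 83 against 1, and 31.4 (14.2 to 86.7) in iG+A, from 189 against 6. In iAtoh1 cells the ratio was 3.83 (1.01 to 21.4), from 11 reads against 3. In iG+P cells it was 10.2 (1.45 to 441), from 10 reads against 1, and the log2 fold change of 1.96 missed the threshold (adjusted p = 0.0586). With all 14 untreated libraries as one control group the iG+P value was 1.61 with an adjusted p of 0.0269, and it also passed without any one of the iAtoh1 libraries (adjusted p = 0.0412 to 0.0489).

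Ordered by mean level with Dox, iGPA cells led with 417 ± 113 (SD, n = 2), followed by iG+A with 110 ± 47.5, iP+A with 38.3 ± 13.5, iAtoh1 with 5.25 ± 5.50 and iG+P with 5.13 ± 0.703. The libraries of the first 3 lines did not overlap with those of the next line in this order. iAtoh1 overlapped with iG+P, and iGfi1 (1.87 ± 0.693) with iPou4f3 (0.698 ± 0.988).

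Adding Atoh1 to Gfi1 and Pou4f3 went with a larger Lhx3 effect. The effect in iGPA exceeded that in iG+P by 5.79 on the log2 scale (95% interval 3.50 to 8.09, limma adjusted p = 0.00149). Adding Gfi1 to Atoh1 gave a difference of 3.32 (1.03 to 5.62, adjusted p = 0.0466), which was no longer past the threshold with the replicate number as a block (adjusted p = 0.0623). It was lost in 16 of 28 fits that left out 1 library. In 4 of them the value itself was smaller, at 2.27 without iAtoh1 Dox replicate 2, 2.45 without iAtoh1 No Dox replicate 2, 2.76 without iG+A No Dox replicate 1 and 2.87 without iG+A Dox replicate 2. In the other 12, which left out a library of iGfi1, iGPA, the iG+P Dox or the iP+A Dox group, it stayed at 3.32 with an adjusted p of 0.0523 to 0.0569. The other 4 differences missed the threshold, and for 3 of them the interval lay above 0. iGPA exceeded iP+A by 3.15 (0.85 to 5.45, adjusted p = 0.0528) and iG+A by 3.01 (0.71 to 5.31, adjusted p = 0.139), and iP+A exceeded iAtoh1 by 3.19 (0.89 to 5.48, adjusted p = 0.108). With a pseudocount of 5 in place of 1, these 3 became 3.23 (adjusted p = 0.000419), 2.37 (adjusted p = 0.0143) and 2.25 (adjusted p = 0.0169) and passed. iGPA minus iP+A also passed with only the groups compared in the fit (adjusted p = 0.0362) and in 5 of 28 fits that left out 1 library, those without an iAtoh1 library or the second iP+A No Dox library. iP+A minus iAtoh1 passed without iAtoh1 Dox replicate 1 (4.24, adjusted p = 0.0419), and was 2.13 without iAtoh1 Dox replicate 2. iG+P minus iPou4f3 gave 2.02 (−0.27 to 4.32, adjusted p = 0.224). The iG+A minus iAtoh1 difference, in contrast, was lost with a pseudocount of 0.5 (3.12, adjusted p = 0.159), with quantile normalisation (3.02, adjusted p = 0.0678) and in a fit of only the groups compared (adjusted p = 0.178).

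The genes whose log2 levels over the 28 libraries were most like those of Lhx3 were Ip6k3 (Pearson r = 0.948), Selenom (0.94), Fbrsl1 (0.93), Tbc1d2 (0.922) and Hid1 (0.92). Isl1 reached 0.851. The 28 libraries share lines, and these values are given as a description.

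Lhx4 (chr1:157548827-157589157, minus strand), the paralog that acts with Lhx3 in the pituitary and in motor neurons, stayed low and was called in no line. It ran from 9.20 to 55.9 normalised counts without Dox and from 13.7 to 68.7 with Dox. Its log2 fold change was 0.93 in iGfi1 cells (95% interval −0.02 to 1.89), 0.44 in iGPA (−0.52 to 1.39) and −0.65 in iPou4f3 (−1.60 to 0.31), the largest of its values in either direction among them. In iGPA cells, where Lhx3 was at its highest, Lhx4 was at 55.9 and 30.5 without Dox and at 46.1 and 68.7 with Dox, and the groups overlapped. Platr8 (r = 0.774) and Jun (0.773) were most like it.

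Isl1 (chr13:117088478-117099896, minus strand), which directs motor and sensory neuron identity and also marks cardiac progenitors, was already present in untreated EBs, at 203 to 1071 normalised counts. It rose in the same 3 lines as Lhx3. In iGPA it went from 475 and 226 to 7397 and 7381, in iG+A from 203 and 599 to 4187 and 2317, and in iP+A from 628 and 540 to 2538 and 2257. All 6 of these Dox libraries lay above all 14 untreated libraries. The log2 fold changes were 4.49 (SE 0.45, limma adjusted p = 2.29e-07), 3.15 (SE 0.45, adjusted p = 2.1e-05) and 2.04 (SE 0.45, adjusted p = 0.00248). Values in the other 4 lines were 0.58 in iAtoh1, 0.58 in iPou4f3, −0.51 in iGfi1 and −0.20 in iG+P, none past the threshold.

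Cadm1 (r = 0.928) and Frmd3 (0.927) were most like Isl1 over the 28 libraries. Levels of Isl1 with Dox were highest in iGPA (7389 ± 11.5, SD, n = 2), then in iG+A (3252 ± 1323), which overlapped with iP+A (2398 ± 198). The effect in iGPA exceeded that in iG+P by 4.69 (95% interval 3.37 to 6.01, adjusted p = 8.17e-05) and that in iP+A by 2.45 (1.13 to 3.77, adjusted p = 0.011). The effect in iG+A exceeded that in iAtoh1 by 2.58 (1.25 to 3.90, adjusted p = 0.00914). iGPA against iG+A gave 1.34 (0.01 to 2.66, adjusted p = 0.266) and iP+A against iAtoh1 gave 1.46 (0.14 to 2.78, adjusted p = 0.223). The iGPA minus iP+A value was lost without iGPA No Dox replicate 2 (1.92, adjusted p = 0.0682), and the iG+A minus iAtoh1 value without iAtoh1 No Dox replicate 1 (2.08, adjusted p = 0.0549) or iG+A No Dox replicate 1 (1.80, adjusted p = 0.0607), and in a fit of only the groups compared (adjusted p = 0.0978). Markers of cardiac mesoderm, among which Isl1-expressing progenitors arise, summed to 38806 to 48443 in untreated iGPA EBs and to 11103 to 11453 in iGPA Dox cells, with 2 of 10 past the threshold, both down (with the replicate block Myl7 also passed, and rose, at 2.35 with an adjusted p of 0.0234). In iP+A they summed to 44640 to 63234 and 60966 to 68972, with 0 of 10 past it. In iG+A they summed to 28240 to 36511 and 9288 to 16501, with 1 of 10 down (2 with the replicate block).

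Isl2 (chr9:55386479-55393987, plus strand), which follows Isl1 in motor neurons and in subsets of sensory and retinal neurons, behaved otherwise. It passed the threshold in iP+A cells, and in no other line, going from 8.15 and 29.4 to 119 and 99.9 normalised counts, and these Dox libraries lay above all 14 untreated ones (7.34 to 29.4). The log2 fold change was 2.72 (SE 0.53, limma adjusted p = 0.000963), and with only the groups compared in the fit the adjusted p was 0.0616. The difference from the iAtoh1 effect was 2.08 (0.50 to 3.65, adjusted p = 0.129) and did not pass, except without iP+A No Dox replicate 2 (2.94, adjusted p = 0.0223), and it was 1.21 at its lowest over single libraries left out. In iGPA cells Isl2 went from 12.2 and 9.82 to 15.3 and 18.2. The effect in iGPA was smaller than that in iP+A by 2.16 on the log2 scale (difference −2.16, 95% interval −3.74 to −0.58, adjusted p = 0.0528), and with the replicate block the adjusted p was 0.0339, with a pseudocount of 5 0.0237 and with quantile normalisation 0.0321. This difference passed in 5 of 28 fits that left out 1 library, those without an iAtoh1 No Dox, an iPou4f3 No Dox or the second iP+A No Dox library, and it was −1.29 (adjusted p = 0.242) without iP+A No Dox replicate 1. The genes most like Isl2 over the 28 libraries were Plcxd2 (r = 0.911) and Stmn2 (0.867).

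Lhx1 (chr11:84331479-84338923, minus strand), needed for the embryonic head organiser, the kidney and several interneuron classes, rose most in the lines with Gfi1 and Pou4f3. It went from 183 and 87.4 to 3950 and 4771 normalised counts in iGPA and from 403 and 342 to 2778 and 2490 in iG+P. Each of these 4 Dox libraries lay above every untreated library, the highest of which held 658. The log2 fold changes were 5.09 (SE 0.67, limma adjusted p = 6.91e-06) in iGPA and 2.82 (SE 0.67, adjusted p = 0.00307) in iG+P.

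In iG+A cells Lhx1 went from 33.6 and 195 to 207 and 377, a log2 fold change of 1.77 (SE 0.67, adjusted p = 0.0426) that turned on 1 control. Without iG+A No Dox replicate 1 it was 0.52 (adjusted p = 0.595), without iG+A No Dox replicate 2 it was 3.02, without iG+A Dox replicate 2 it was 1.34 (adjusted p = 0.225), and against all 14 untreated libraries 0.72 (adjusted p = 0.369). It also missed the threshold without either iG+P No Dox library (adjusted p = 0.0502) and with only the groups compared in the fit (adjusted p = 0.196), with quantile normalisation (1.56, adjusted p = 0.0698) and in limma without trend (adjusted p = 0.0614). Gfi1 or Pou4f3 alone gave 1.57 in iGfi1 (279 and 170 to 602 and 697, adjusted p = 0.0945) and 1.70 in iPou4f3 (66.6 and 212 to 300 and 503, adjusted p = 0.177). With the replicate block these had adjusted p-values of 0.0206 and 0.0451 and passed the threshold. Lhx1 in iGfi1 passed as well with only the groups compared in the fit (adjusted p = 0.0209) and against all 14 untreated libraries (1.93, adjusted p = 0.0261). The iGfi1 value also passed without either iG+A No Dox library (adjusted p = 0.0412 and 0.0413). With Atoh1 alone Lhx1 stood at 658 and 175 without Dox and 214 and 171 with it, so the groups overlapped.

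The Lhx1 effect in iGPA exceeded that in iP+A by 4.24 (95% interval 2.24 to 6.24, limma adjusted p = 0.00447). It exceeded that in iG+A by 3.32 (1.32 to 5.32, adjusted p = 0.0566, with the block 0.0104, and 2.07 to 4.57 without one or the other iG+A No Dox library). It exceeded that in iG+P by 2.27 (0.27 to 4.26, adjusted p = 0.12, with the block 0.0272, with only the groups compared 0.0147). The effect in iG+A exceeded that in iAtoh1 by 2.59 (0.59 to 4.59, adjusted p = 0.0738, with the block 0.0144). That value was 1.34 without iG+A No Dox replicate 1, 1.64 without iAtoh1 No Dox replicate 1, 3.84 without iG+A No Dox replicate 2 (adjusted p = 0.00618) and 3.55 without iAtoh1 No Dox replicate 2 (adjusted p = 0.0208). By mean level with Dox, iGPA (4360 ± 581, SD, n = 2), iG+P (2634 ± 204) and iGfi1 (650 ± 67.3) stood apart from the next line in order, and iPou4f3, iG+A, iP+A and iAtoh1 overlapped each with the next. Lhx1 also marks the node and its derivatives. In iGPA, 1 of 10 markers of the streak, node and anterior endoderm rose (Gsc, and with the replicate block also T, Eomes and Mesp1, so 4) and their sum went from 1002 to 1319 to 2508 to 2919. In iG+P 0 rose (1 with the block, Mesp1), 2 fell and the sum went from 1846 to 2051 to 2081 to 3592. The part of such cells in the Lhx1 values was not tested.

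Lhx5 (chr5:120881895-120891466, plus strand), the paralog of Lhx1 in interneurons and in the forebrain, was called in iPou4f3 and iP+A. In these lines Lhx1 was called only in iPou4f3, and there only with the replicate block. Lhx5 rose in iPou4f3 cells from 6.77 and 15.6 to 329 and 263 normalised counts and in iP+A cells from 5.09 and 5.52 to 67.0 and 94.2. In both lines the Dox libraries lay above all 14 untreated ones, which held 1.97 to 23.5. The log2 fold changes were 4.70 (SE 0.66, limma adjusted p = 0.000218) and 3.68 (SE 0.66, adjusted p = 0.000461). Where Gfi1 was present as well, Lhx5 was not called. It was at 10.2 and 10.0 without and 5.89 and 2.17 with Dox in iG+P, where both Dox libraries lay below the controls (log2 fold change −1.25, adjusted p = 0.158, and a ratio of estimated reads of 0.41 with an exact 95% interval of 0.155 to 0.964, which covers counting error only). In iGPA the groups overlapped, at 6.99 and 1.97 without and 6.14 and 5.05 with Dox in iGPA.

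The Lhx5 effect in iG+P was below that in iPou4f3 by 5.95 on the log2 scale (difference −5.95, 95% interval −7.91 to −4.00, limma adjusted p = 0.000256). In iGPA the difference from iP+A was −3.24 (−5.20 to −1.29, adjusted p = 0.0212). Adding Pou4f3 to Atoh1 gave 4.27 (2.31 to 6.22, adjusted p = 0.0091) in iP+A against iAtoh1, and adding Gfi1 to Atoh1 gave −0.08 (−2.04 to 1.87). Without single libraries, iGPA minus iP+A was lost in 3 fits (−2.53 without iGPA No Dox replicate 1, −3.12 without iGPA Dox replicate 2 and −3.00 without iP+A Dox replicate 2, adjusted p = 0.102, 0.0614 and 0.076). iP+A minus iAtoh1 was lost in 2 (3.24 without iAtoh1 No Dox replicate 1 and 3.79 without iAtoh1 Dox replicate 2, adjusted p = 0.0618 and 0.0542) and in a fit of only the groups compared (adjusted p = 0.0832). Thus Lhx5 was raised in both lines that carried Pou4f3 without Gfi1, and its paralog Lhx1 reached its highest levels in both lines that carried Pou4f3 with Gfi1. The genes most like Lhx5 were Cps1 (r = 0.864) and Dclk1 (0.857), and those most like Lhx1 were Clic5 (0.898) and Zic5 (0.886).

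**Figure D3:**
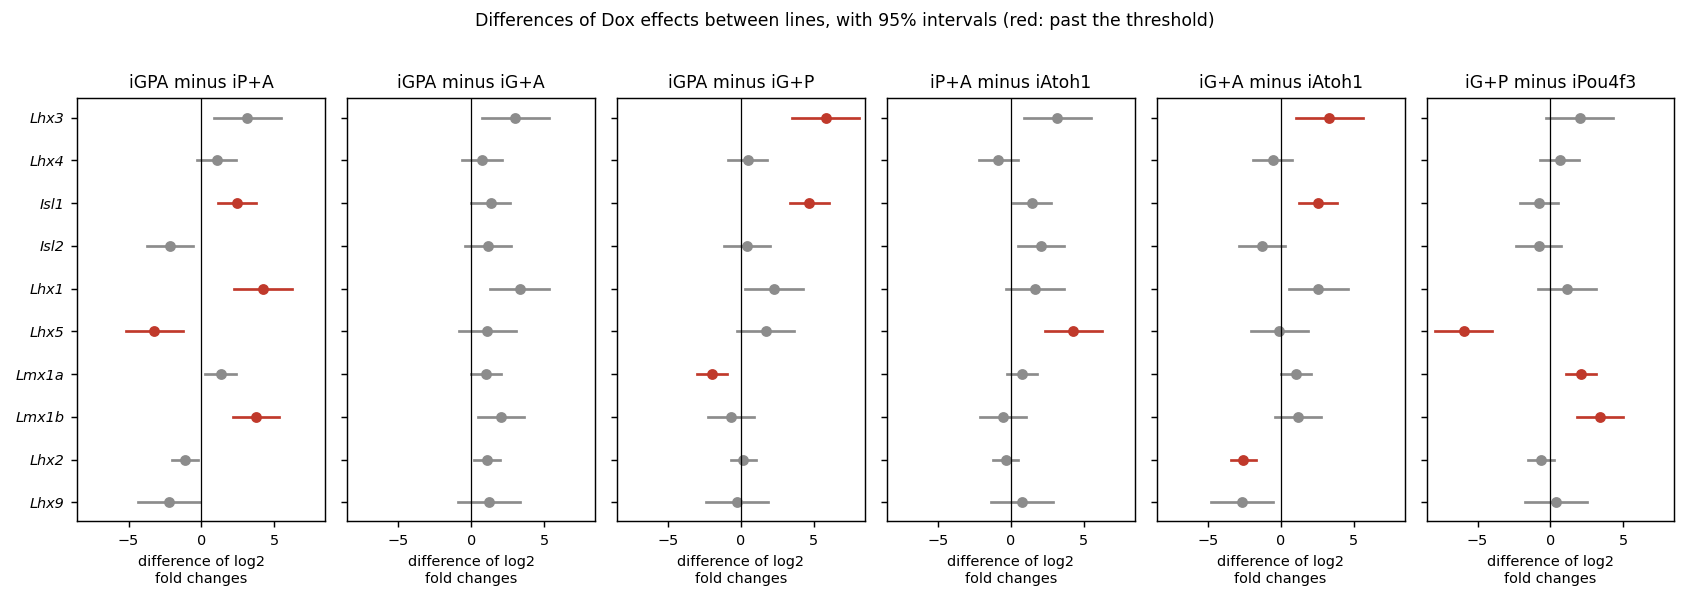
Difference of the log2 fold changes of a pair of lines (x axis) for each LIM homeodomain gene, with points for the estimate and lines for the 95% interval from limma. Red marks differences past the threshold, such as Lhx5 at −5.95 for iG+P minus iPou4f3 and Lhx3 at 5.79 for iGPA minus iG+P, and no difference for iGPA minus iG+A is red.

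Lmx1b (chr2:33416485-33496031, minus strand), required for the dorsal limb, serotonergic neurons and dorsal horn neurons, rose in all 4 lines with Gfi1. It went from 18.4 and 13 to 407 and 316 normalised counts in iG+P, from 9.61 and 6.88 to 119 and 128 in iGPA, from 14 and 13 to 114 and 88.7 in iGfi1, and from 9.28 and 19.0 to 24.5 and 87.8 in iG+A. The Dox libraries of the first 3 lines lay above all 14 untreated libraries (6.88 to 30.4), and 1 of the iG+A Dox libraries did not. The log2 fold changes were 4.45 (SE 0.53, limma adjusted p = 3.54e-06), 3.77 (SE 0.53, adjusted p = 1.43e-05), 2.81 (SE 0.53, adjusted p = 0.000888) and 1.73 (SE 0.53, adjusted p = 0.0144). The iG+A value was 0.83 without iG+A Dox replicate 2 (adjusted p = 0.262) 1.25 without iG+A No Dox replicate 1 (adjusted p = 0.148) and 2.63 without iG+A Dox replicate 1, and with only the groups compared in the fit its adjusted p was 0.157. With a pseudocount of 5 it lay just under the required 1.5. The 3 lines without Gfi1 gave 0.54 in iAtoh1, 1.04 in iPou4f3 and −0.01 in iP+A, none past the threshold.

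The differences for Lmx1b that were past the threshold both compare a line with Gfi1 to one without. iGPA exceeded iP+A by 3.77 (95% interval 2.20 to 5.35, limma adjusted p = 0.00189) and iG+P exceeded iPou4f3 by 3.41 (1.83 to 4.98, adjusted p = 0.00401). Adding Gfi1 to Atoh1 gave 1.19 (−0.38 to 2.77, adjusted p = 0.317) in iG+A against iAtoh1. iGPA exceeded iG+A by 2.04 (0.46 to 3.61, adjusted p = 0.146, with the block 0.0266). Without iG+A Dox replicate 2 that difference was 2.94 (adjusted p = 0.0275) and without iG+A Dox replicate 1 it was 1.14 (adjusted p = 0.381). Pitpnm1 (r = 0.926) and Zic5 (0.924) were most like Lmx1b over the 28 libraries, and Lhx1 reached 0.85.

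Lmx1a (chr1:169619370-169778872, plus strand), the paralog of Lmx1b that directs roof plate and midbrain dopaminergic fates and is expressed in the otic vesicle, was the member that most often fell. It was well expressed without Dox, at 181 to 901 normalised counts. It fell in iAtoh1 from 238 and 400 to 45.7 and 51.1, in iP+A from 181 and 196 to 49.8 and 50, and in iG+A from 901 and 501 to 230 and 209. The Dox libraries of iAtoh1 and iP+A lay below all untreated libraries of the series, but those of iG+A did not. The log2 fold changes were −2.65 (SE 0.35, limma adjusted p = 3.21e-05), −1.89 (SE 0.35, adjusted p = 0.000584) and −1.61 (SE 0.35, adjusted p = 0.00123). The iG+A value was −1.19 (adjusted p = 0.0333) without iG+A No Dox replicate 1 and −0.82 (adjusted p = 0.127) against all 14 untreated libraries.

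In lines without the Atoh1 transgene Lmx1a took the other direction where Gfi1 was present. It rose in iGfi1 from 354 and 355 to 1519 and 1078 (log2 fold change 1.85, SE 0.35, limma adjusted p = 0.000875). In iG+P it went from 236 and 319 to 572 and 936, a log2 fold change of 1.41 with an adjusted p of 0.00394 that lay under the required 1.5, and it was 1.63 without iG+P No Dox replicate 2 and 1.77 without iG+P Dox replicate 1. The effect in iG+P exceeded that in iPou4f3 by 2.08 (95% interval 1.04 to 3.11, adjusted p = 0.00664). In iGPA, which adds Atoh1 to Gfi1 and Pou4f3, the effect was lower than in iG+P, with a difference of −2.0 (−3.03 to −0.96, adjusted p = 0.0103). It was lost without iG+P No Dox replicate 1, iG+P Dox replicate 2, iGPA No Dox replicate 2 or iGPA Dox replicate 1 (−1.78 to −1.45, adjusted p = 0.0521 to 0.0676), and in a fit of only the groups compared (adjusted p = 0.0515). Epb42 (r = 0.97) and Slc16a10 (0.969) were most like Lmx1a. Epb42 encodes a protein of the red cell membrane, and the sum of blood markers moved with Lmx1a in some lines and not in others. Their sum went from 183537 to 207100 to 16580 to 20583 in iAtoh1 (6 of 8 down), from 179015 to 261941 to 199585 to 369084 in iGfi1 (1 of 8 up), from 388212 to 498494 to 48449 to 58326 in iG+A (4 of 8 down) and from 105598 to 122701 to 13964 to 32193 in iP+A (5 of 8 down). It went from 69461 to 139982 to 38066 to 87950 in iG+P (2 of 8 down, with overlapping groups), where Lmx1a was higher with Dox. In iGPA, where Lmx1a was not called, it went from 265126 to 442791 to 29355 to 52385 (4 of 8 down). The globins Hbb-bh1 and Hba-x weigh most in these sums. The median blood marker effect was below 0 in iAtoh1 (−2.80), iP+A (−1.70), iG+A (−1.47), iGPA (−1.27) and iPou4f3 (−0.35). It was above 0 in iG+P (0.41) and iGfi1 (0.99), the lines in which Lmx1a was higher with Dox. The part of blood cells in the Lmx1a values was not tested.

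Lhx2 (chr2:38194801-38225253, plus strand), which patterns the cortex, eye and hair follicle, passed the threshold in iG+A alone, where it fell from 165 and 108 to 37.5 and 41.7 normalised counts (log2 fold change −1.73, SE 0.29, limma adjusted p = 0.000136). All Dox libraries of iG+A lay below the 14 untreated ones (66.0 to 165). The value was −1.43 without iG+A No Dox replicate 1 and −1.11 against all 14 untreated libraries. In iGfi1 cells Lhx2 went from 97.4 and 87.2 to 39.1 and 33.2, and the log2 fold change of −1.33 (adjusted p = 0.00273) lay under the required size. In iAtoh1 it went from 72.0 and 66.0 to 134 and 115 (0.84, adjusted p = 0.0459). The effects of iG+A and iAtoh1 differed by −2.57 (95% interval −3.44 to −1.70, adjusted p = 0.000346).

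Lhx9 (chr1:140721763-140745153, minus strand), the paralog of Lhx2 in the gonad, the pretectum and dorsal spinal interneurons that descend from Atoh1-expressing progenitors, rose in iP+A cells from 21.2 and 22.0 to 180 and 96.1 normalised counts. The log2 fold change was 2.55 (SE 0.72, limma adjusted p = 0.0141). It missed the threshold without iP+A Dox replicate 1 (2.10, adjusted p = 0.134) and without either iP+A No Dox library (2.53 and 2.58, adjusted p = 0.0568 and 0.0591). In iAtoh1 cells it went from 18.3 and 10.2 to 69.5 and 35.5, and all 4 of these Dox libraries lay above the 14 untreated ones (7.86 to 25.7). The iAtoh1 value of 1.78 had an adjusted p of 0.0816, and of 0.0224 with the replicate block. In both lines that combine Atoh1 with Gfi1 the Dox and No Dox libraries overlapped, with Dox levels of 3.32 and 30.7 in iG+A and 39.5 and 13.7 in iGPA. Without iG+A Dox replicate 2 the iG+A effect was −2.29 (adjusted p = 0.0145) and without iG+A Dox replicate 1 it was 0.59 (adjusted p = 0.536), against −0.85 with both. The difference was −2.63 (−4.76 to −0.50, adjusted p = 0.0892, with the block 0.0246, and over single libraries left out −4.07 without iG+A Dox replicate 2, adjusted p = 0.00516, to −1.20 without iG+A Dox replicate 1) for iG+A minus iAtoh1 and −2.20 (−4.33 to −0.07, adjusted p = 0.144, with the block 0.047) for iGPA minus iP+A. Adamts8 (r = 0.848) and the neuronal tubulin Tubb3 (0.843) were most like Lhx9, and Fbxl7 (0.886) and Cfap69 (0.88) most like Lhx2.

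Counted over the family, iGPA and iP+A cells differed in 4 of 10 members, against 7.60% of all genes, with Lhx1, Isl1 and Lmx1b higher and Lhx5 lower in iGPA. Both lines carry Atoh1 and Pou4f3, and iGPA adds Gfi1. For iGPA minus iG+P 3 members differed (5.90%), with Lhx3 and Isl1 higher and Lmx1a lower. For iG+A minus iAtoh1 3 differed (6.87%), with Lhx3 and Isl1 higher and Lhx2 lower, and for iG+P minus iPou4f3 3 differed (7.63%), with Lmx1a and Lmx1b higher and Lhx5 lower. For iP+A minus iAtoh1 1 differed (2.78%), namely Lhx5. For iGPA minus iG+A 0 passed in limma (2.20%), while 5 members had an unadjusted p under 0.05. Over all genes 3107 had an unadjusted p under 0.05 in that comparison, and in limma with the replicate block Lhx1 and Lmx1b passed. Lhx1 passed there also with a pseudocount of 5 (3.35, adjusted p = 0.0429) and in 5 of 28 fits that left out 1 library. These 6 comparisons share lines, so their values are not independent of each other.

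At least 2 of 8 neuronal markers rose in 6 of the 7 lines, and the most rose in iP+A and iGPA. The sum of 8 neuronal markers went from 615 to 1033 to 17277 to 23193 in iP+A, with 8 of 8 up (7 with the replicate block), and from 424 to 619 to 7774 to 7780 in iGPA, with 7 of 8 up. In iG+A, where Lhx3 and Isl1 also rose, it went from 389 to 616 to 1090 to 1306, with 3 of 8 up. In iAtoh1, where no member rose, 4 of 8 were up and the sum went from 684 to 1331 to 1809 to 2806, and in iG+P 2 of 8 were up and it went from 738 to 767 to 1712 to 2094. In iPou4f3, where Lhx5 rose, 2 of 8 were up (3 with the block) and the sum went from 486 to 707 to 1500 to 1913. Of 5 HC markers 3 were up in iGPA, 2 in both iG+P and iG+A, 1 in both iPou4f3 and iP+A, and 0 in iAtoh1 and iGfi1. The sum of these 5 was already high without Dox. It went from 29537 to 56722 to 67660 to 77053 in iG+P, and it also lay above the controls in iPou4f3. In the other lines the groups overlapped, as in iGPA (14665 to 41071 and 37452 to 42034) and iG+A (33145 to 72444 and 32707 to 44999). All 6 fibroblast markers fell in iGPA cells, and their sum went from 63917 to 111155 to 6069 to 8617. Of the same 6, 5 fell in iG+A, 3 in both iAtoh1 and iG+P, 2 in iGfi1, 1 in iP+A and 0 in iPou4f3. With the replicate block these were 6 in iG+A, 5 in iG+P, 4 in both iAtoh1 and iGfi1 and 2 in iP+A. Their median effect was negative in every line, from −0.78 in iPou4f3 to −3.57 in iGPA. The part of these cell types in the values of the members was not tested.

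The partners of LIM homeodomain proteins were examined from a list of 10 cofactor genes. Ldb1 and Ldb2 are the adaptors, Ssbp2, Ssbp3 and Ssbp4 bind and stabilise them, Rlim is a ubiquitin ligase that acts on Ldb1, and Lmo1 to Lmo4 are LIM-only proteins, which hold LIM domains but no homeodomain and compete for the adaptors. The adaptors, Ssbp3, Ssbp4, Rlim and Lmo4 passed the threshold in no line. The changes lay in LIM-only genes and in Ssbp2. Of the 10, 3 rose in iGPA, 2 in both iG+P and iG+A, and 1 each in iAtoh1, iGfi1, iPou4f3 and iP+A, and 1 fell in iG+P. Over all tested genes the shares that rose were 8.65% in iGPA, 7.35% in iG+A, 5.16% in iG+P, 2.89% in iAtoh1, 2.15% in iGfi1, 1.47% in iPou4f3 and 4.70% in iP+A, and 5.36% fell in iG+P.

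Lmo1 rose in 6 of 7 lines, the exception being iGfi1. It went from 62.9 and 27.5 to 2505 and 2140 normalised counts in iGPA, from 102 and 91.1 to 2443 and 2510 in iP+A, and from 27.8 and 47.1 to 1588 and 857 in iG+A, the lines in which Lhx3 and Isl1 rose. The log2 fold changes were 5.76 (SE 0.40, limma adjusted p = 2.62e-09), 4.67 (SE 0.40, adjusted p = 9.22e-08) and 4.97 (SE 0.40, adjusted p = 2.95e-08), and those of iPou4f3, iAtoh1 and iG+P were 3.42, 2.80 and 2.68. In iGfi1 Lmo1 stood at 53.9 and 61.0 without and 68.6 and 86.6 with Dox (0.42, adjusted p = 0.464). Lmo2, a partner of Ldb1 in blood and endothelium, rose in the 4 lines with Gfi1, as Lmx1b did. In iG+A it went from 2421 and 2338 to 8024 and 17719, and its log2 fold changes were 2.32 in iG+A, 2.27 in iG+P, 1.97 in iGPA and 1.88 in iGfi1. In the 3 lines without Gfi1 they were 0.58, −0.64 and −0.71, none past the threshold. Ssbp2 rose in iGPA from 1953 and 1977 to 6831 and 5065 (1.58, adjusted p = 1.4e-06), and Lmo3 fell in iG+P from 18.8 and 20.5 to 4.87 and 6.80 (−1.61, adjusted p = 0.0237).

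**Figure D4:**
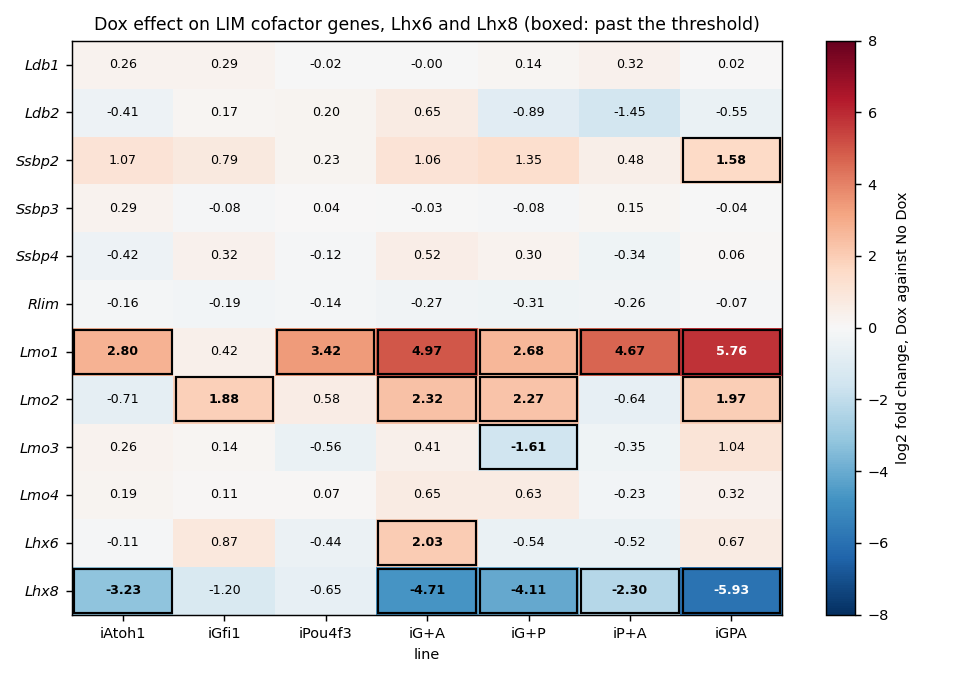
Log2 fold change of Dox against No Dox for the 10 LIM cofactor genes and for Lhx6 and Lhx8 (rows) in each line (columns), with effects past the threshold boxed and in bold. Lmo1 is boxed in every line but iGfi1, Lmo2 in the 4 lines with Gfi1, and Lhx8, which falls, in 5 lines.

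Lhx8, a LIM homeodomain gene of forebrain cholinergic neurons, tooth and oocytes, fell in 5 of 7 lines. In iGPA it went from 255 and 399 to 8.19 and 2.02 normalised counts (log2 fold change −5.93, SE 0.61, limma adjusted p = 3.79e-07), in iG+A from 234 and 162 to 8.51 and 4.88 (−4.71) and in iG+P from 295 and 207 to 12.8 and 14.1 (−4.11). iAtoh1 gave −3.23 and iP+A −2.30, both past the threshold, and iGfi1 (−1.20) and iPou4f3 (−0.65) did not pass. Its relative Lhx6, needed for cortical interneurons, rose in iG+A from 105 and 107 to 466 and 405 (2.03, adjusted p = 0.000454) and in no other line.

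Among 16 transcription factors that accompany LIM homeodomain proteins in neuron classes, 15 were tested. Of these 5 rose and 2 fell in iGPA, 4 rose in iP+A, 4 rose and 3 fell in iG+P, 3 rose and 2 fell in iG+A, 3 rose in iAtoh1, 3 rose in iPou4f3, and 2 fell in iGfi1. With the replicate block Pax2 also fell in iG+P (−1.62, adjusted p = 0.027) and Sox14 rose in iGfi1 (1.94, adjusted p = 0.0336). The shares of all tested genes that rose, as given for the cofactors, are the background for these counts and the next, and those that fell were 5.31% in iGPA, 5.36% in iG+P, 4.95% in iG+A and 2.67% in iGfi1. Barhl1, a homeobox gene that follows Atoh1 in dorsal interneurons and in HCs, rose in iP+A from 5.09 and 7.36 to 1173 and 885 (log2 fold change 7.16) and in iGPA from 10.5 and 10.8 to 953 and 1207 (6.53). Barhl2, its neuronal paralog, rose in iP+A from 2.04 and 4.6 to 743 and 533 (7.26, limma adjusted p = 7.16e-05), and in iGPA went from 0.874 and 1.97 to 21.5 and 5.05 (2.31, adjusted p = 0.0899). Pou4f1, a sensory neuron factor, rose most in iP+A, from 15.3 and 45.0 to 2346 and 1752 (6.21). Sox14, which marks V2 interneurons in which Lhx3 is made, rose in iGPA from 0 and 0.81 to 126 and 156 (6.72, adjusted p = 5.82e-06), in iG+P to 58.9 and 36.1 (4.96) and in iG+A to 120 and 102 (4.8). Barhl2 and Sox14 reached 10 normalised counts in no untreated library, so they passed the filter on low values only through Dox libraries and had to differ there. In iP+A, where Lhx3 also rose, Sox14 stood at 0.843 and 2.27 without and 0 and 3.56 with Dox.

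Of 6 motor neuron and cholinergic genes 5 were tested, and 3 rose in iGPA, 3 rose and 1 fell in iG+A, 2 rose in iP+A and 1 rose in iAtoh1. The gene that fell was Slc5a7 (−2.36), a choline transporter, which in iP+A was at 1.85 (adjusted p = 0.0523) and passed with the replicate block (adjusted p = 0.0228). The 6 genes together reached only 102 to 113 normalised counts in iGPA Dox cells. Mnx1, a motor neuron factor, rose in iGPA from 3.49 and 4.91 to 36.8 and 45.4 normalised counts (log2 fold change 3.02, limma adjusted p = 9.35e-05), in iAtoh1 (1.88) and in iG+A (1.87). Chat, which makes acetylcholine, rose in iGPA from 1.94 and 2.18 to 19.9 and 25.3 (2.94, adjusted p = 0.0017). Slc18a3, the vesicular acetylcholine transporter, reached 18.4 and 9.07 in iGPA Dox cells (2.86, adjusted p = 0.0103), and Neurog2, a proneural gene of motor neuron progenitors, 17.2 and 20.1 in iP+A (2.65, adjusted p = 0.0409). Chat, Slc18a3 and Neurog2 reached 10 normalised counts in at most 1 untreated library and so also passed the filter only with Dox libraries. Of 6 pituitary genes, the other known setting of Lhx3 and Lhx4, 5 were tested. Pitx1, which acts with Lhx3 in the pituitary and also marks hindlimb and oral ectoderm, fell in the 4 lines with Gfi1, in iG+P from 2879 and 2211 to 130 and 200 (−3.96, adjusted p = 1.03e-08) and in iGPA from 2024 and 2137 to 226 and 263 (−3.09). Cga, the shared subunit of pituitary hormones, rose in iG+A (2.05, adjusted p = 0.00194), and Hesx1, a repressor of early pituitary, fell in iAtoh1 from 41 and 4.9 to 1.82 and 0.948 (−2.75, adjusted p = 0.0448), with the controls far apart.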

How the data were processed

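mRNA libraries of 28 samples, from 2 clones for each of the 14 groups, were sequenced by the authors, trimmed with cutadapt and quantified with kallisto against mouse transcripts of build mm9. The deposited values are gene-level log2 values that the authors made from DESeq2-normalised counts, in one matrix of 19421 genes, of which 19314 could be named. That 1 was added before the log was read from the values, and back-transformed values are called normalised counts. A share of 71.29 to 79.44% of values up to 20 lay within 0.05 of a whole read, too few to recover reads. Depth was therefore estimated from the smallest steps, and no count model was fitted over the genes. The deposited values were therefore tested with limma (version 3.58.1, R 4.3.3) and not with the count model used in the study.

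Genes with at least 10 normalised counts in at least 2 libraries were kept (16837). One limma fit with mean-variance trend over all 14 groups (14 residual degrees of freedom) gave Dox against No Dox in each of the 7 lines and 6 differences between lines, with Benjamini-Hochberg adjustment over all kept genes within each comparison. A call required an adjusted p under 0.05 and a log2 difference of at least 1.5. The median SE of a Dox effect was 0.53 for the members and 0.18 for all genes. The spread between clones of a group was estimated for each gene over all 14 groups together and moderated by limma. A gene therefore has the same SE in every line, and p-values do not measure the spread of a single line. Counting intervals are exact 95% Poisson intervals for estimated reads, summed over the 2 libraries of a group and rounded. Since whole reads were not recovered, they are approximate, and they leave out the spread between clones.

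The members and gene lists were chosen with earlier results of these data known. Named genes were all members, up to 4 genes of each list with the largest change past the threshold, and the genes most correlated with a member (5 for Lhx3, 2 for others). Pax2, Slc5a7 and the single cell type markers named with their counts were named after their values were seen. Alternatives were the replicate block, pooled controls, other pseudocounts, filters, scalings and each library left out in turn. Replicate numbers were checked for pairing by the correlation of deviations from the group means, which was 0.10 to 0.25 over the 7 lines, above 0.1 in each, and the numbers come from the labels. The fits were tested on simulated data. Gene positions are those of NCBIM37 (mm9), and figures were drawn with matplotlib 3.10.9 in Python 3.11.15.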

Additional observations from a re-analysis of the deposited data

Results flagged for a closer look

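The Dox effect on 7 members differed between lines in the fitted interaction terms of limma, in 14 cases. All are differences of log2 fold changes, and a positive value means a higher effect in the line named first. The intervals, adjusted p-values and fits without single libraries stand beside these results in the text above.

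Adding Gfi1 to lines that already held Atoh1 or Pou4f3 gave 10 of them. Over all genes these comparisons also called the most, at 7.60% (iGPA minus iP+A), 6.87% (iG+A minus iAtoh1) and 7.63% (iG+P minus iPou4f3). The others called 5.90% (iGPA minus iG+P), 2.78% (iP+A minus iAtoh1) and 2.20% (iGPA minus iG+A). For iGPA minus iP+A they were 4.24 for Lhx1, 2.45 for Isl1, 3.77 for Lmx1b and −3.24 for Lhx5. For iG+A minus iAtoh1 they were 3.32 for Lhx3, 2.58 for Isl1 and −2.57 for Lhx2. For iG+P minus iPou4f3 they were −5.95 for Lhx5, 2.08 for Lmx1a and 3.41 for Lmx1b.

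Adding Atoh1 to Gfi1 and Pou4f3 (iGPA minus iG+P) gave 5.79 for Lhx3, 4.69 for Isl1 and −2.0 for Lmx1a. Adding Pou4f3 to Atoh1 (iP+A minus iAtoh1) gave 4.27 for Lhx5. Of the 14, 6 lost the threshold when 1 library was left out in at least 1 fit, namely Lhx3 and Isl1 in iG+A minus iAtoh1, Isl1 and Lhx5 in iGPA minus iP+A, Lhx5 in iP+A minus iAtoh1 and Lmx1a in iGPA minus iG+P.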

How the results depend on the processing

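No called result changed direction under any alternative run. With the replicate block 2 members passed in iAtoh1 (1 without it), 2 in iPou4f3 (1 without it) and 3 in iGfi1 (2 without it). Of 130 effects and differences 10 gained and 1 lost the threshold under the block, each given with the result above. Of the listed genes that are no members, it changed 33 calls, 29 of them gains among the cell type markers, 1 a marker lost (Nefm in iP+A) and 3 in the other lists. In iAtoh1, 2 passed also with quantile normalisation and with all 14 untreated libraries as one control group, where 3 and not 6 passed in iG+A. Filters of 50 normalised counts or none and rescaling by the 75th percentile moved no call. In fits limited to the groups compared 7 calls were lost and 3 gained, each given above. With 1 library left out, 1 to 2 members passed in iAtoh1, 2 to 3 in iGfi1, 1 in iPou4f3, 2 to 6 in iG+A, 2 to 3 in iG+P, 5 to 6 in iP+A and 4 in iGPA, and 11 to 17 of the differences (14 with all libraries). The 2 of iG+A, without its No Dox replicate 1, were Lhx3 and Isl1. Low levels limit Lhx3 in untreated EBs, where a few reads set each value. The causes were not tested.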
